A study of Mus musculus with 12 samples.

Results

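Immunoglobulin G receptors and the receptors that take up dying cells were followed in macrophages sorted from mouse tumours. The set held 10 genes, taken by symbol from the 24346 gene symbols in the tables: the IgG receptor genes Fcgr1, Fcgr2b, Fcgr3 and Fcgr4, their signalling chain Fcer1g, the receptor kinases Mertk and Axl, and the bridging ligands Gas6, Pros1 and Mfge8. Each symbol occurred in 1 row, and 10 of 10 passed the filter on low values, a level of 1 FPKM or more in 3 or more libraries, which 11808 genes met. FPKM is a read count scaled to transcript length and to library size.

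The 12 libraries came from Arg1-RFP mice, which carry a red fluorescent reporter of Arg1, bearing B16F10 or MC38 tumours. B16F10 is a pigmented melanoma line and MC38 a colon carcinoma line. From each tumour the study sorted macrophages, gated as positive for CD45, CD11b, F4/80 and MHCII and as negative for CD90.2, B220, NK1.1, Ly6G and Ly6C, into an RFP+ and an RFP- fraction. The 4 groups were B16F10 RFP+, B16F10 RFP-, MC38 RFP+ and MC38 RFP-, with 3 libraries in each, and all carried the reporter allele. The sources used here do not give age, sex, host strain or tumour size, and no group without a tumour was analysed here. Titles number the libraries 12, 11 and 3 in B16F10 and 1, 2 and 3 in MC38, and each number stands in both gates. The design mentions 3 mice without saying which libraries came from which, so the spread between libraries may be partly technical.

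IgG receptors bind the constant part of antibodies. FcγRI, FcγRIII and FcγRIV, encoded by Fcgr1, Fcgr3 and Fcgr4, activate the cell through the common γ chain from Fcer1g, whereas FcγRIIB, from Fcgr2b, carries its own inhibitory motif and sets the threshold for that activation. Apoptotic cells expose phosphatidylserine. Gas6 bridges it to the receptor kinases MerTK and Axl, protein S, from Pros1, bridges it to MerTK, and MFG-E8, from Mfge8, bridges it to αv integrins. In tissue macrophages MerTK is known for the quiet clearance of dying cells, and Axl is known to be induced by inflammatory signals.

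The reporter gate tracked its gene: Arg1 lay between 394 and 916 FPKM in the 6 RFP+ libraries and between 40.6 and 125 FPKM in the 6 RFP- libraries. Total FPKM was 614875 to 815591 per library, with the highest total and the most genes at 0 in B16F10 RFP- number 12. Low FPKM values step by what a single read adds, and relative to MC38 RFP- number 3 that step was 2.81 to 3.36 times as large in B16F10 and 0.940 to 1.09 times in MC38, so the B16F10 libraries were shallower and tumour and depth cannot be told apart. Macrophage genes were present in every library, the summed FPKM of 9 core genes (among them Csf1r, Adgre1, Itgam, Cd68, Lyz2 and Ctss) being 4840 to 13100 in B16F10 and 23800 to 33900 in MC38. The summed FPKM of 7 melanocytic genes was 7770 to 10300 in the B16F10 libraries of both gates and 10.7 to 18.8 in MC38. Of markers of other cells, the 6 B cell genes summed to 5.92 to 19 FPKM in B16F10 and 17.6 to 36.1 in MC38, with Pax5 at 0 in all libraries, the neutrophil genes summed to 17.2 to 733 FPKM in B16F10 and 3.17 to 11.8 in MC38, the fibroblast genes to 2.26 to 3.71 and 48.3 to 65.7, and the dendritic cell genes to 7.53 to 49.5 and 14.2 to 66.2.

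Between the gates, Axl was lower in RFP+ cells and Mertk and Fcgr2b were higher in RFP+ cells in 6 of 6 pairs of libraries with the same number, and these were the 3 members of 10 with the same sign in every pair, against 8.54% of all genes kept. After scaling to the macrophage core genes, a scale explained with the tumour comparison, Mertk was higher and Axl lower in 6 of 6 pairs and Fcgr2b higher in 5 of 6. On that scale Fcgr4, Fcer1g and Pros1 were lower in RFP+ in 6 of 6 pairs too. The median gate difference of all genes there was -0.37 in B16F10 and -0.13 in MC38. No share of all genes was counted for the scaled pairs. In B16F10, 0 of 10 members passed an adjusted p of 0.05 in limma without a pairing term, where 0.178% of all genes did, and 1 of 10, Axl, passed with the library number as a block, where 1.36% did. In MC38 no member passed in either fit, where 0.0254% of all genes passed without the block and 0.44% with it. For the mean of both tumours, 0 members passed without the block and 2 with it, Axl and Fcgr2b, beside 0.449% and 1.92% of all genes. At an unadjusted p under 0.05 without the block, 2 members stood in B16F10 (Axl and Fcgr2b, beside 9.82% of all genes), 1 in MC38 (Pros1, 3.35%) and 3 for the mean (Axl, Fcgr2b and Mertk, 7.45%). With the block these counts were 5, 3 and 3 members, beside 18.4%, 6.09% and 13.3% of all genes.

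Between the tumours the members differed by much more. Averaged over both gates, 8 of 10 members were lower in B16F10 and 2, Gas6 and Mfge8, were higher, all past the threshold, and scaling to the macrophage core genes turned the sign of 5 of the 8, as given with the tumour comparison. The background was wide: 69.4% of all genes kept passed, 44% higher and 25.4% lower in B16F10. In bulk libraries, fewer cells of a type and less RNA per cell cannot be told apart.

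**Figure D1:**
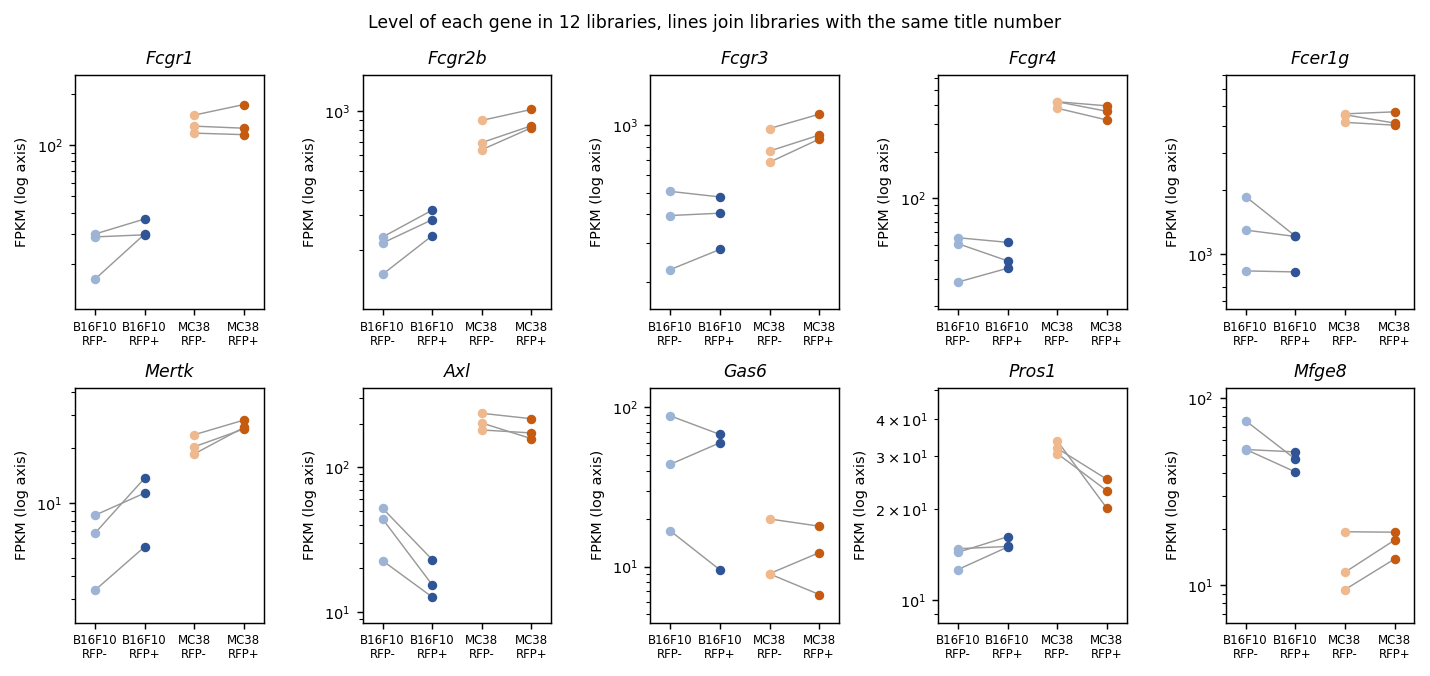
FPKM of the 10 members in 12 libraries on a log axis, 1 panel per gene, with lines joining the RFP- and RFP+ libraries that share a title number. For 8 genes the MC38 libraries lie above the B16F10 libraries without overlap, a sign that scaling to macrophage core genes turned for 5 of them, Gas6 and Mfge8 lie the other way round, with some overlap for Gas6, and the Mertk and Axl lines slope in opposite directions.

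The high-affinity receptor gene Fcgr1 (chr3:96282909-96293969, minus strand, GRCm38) had 29.7, 29.9 and 36.7 FPKM in B16F10 RFP+ libraries 12, 11 and 3 and 28.8, 16.3 and 29.97 FPKM in the RFP- libraries of the same numbers. In MC38 libraries 1, 2 and 3 its level was 115, 125 and 172 FPKM in RFP+ and 117, 129 and 149 FPKM in RFP- cells. The tumours did not overlap and the gates did, with number 11 of B16F10 RFP- the lowest of all 12. The gate difference, RFP+ minus RFP- on the scale of log2(FPKM + 1), was 0.39 ± 0.22 in B16F10 (SE, adjusted p = 0.512) and 0.045 ± 0.22 in MC38 (adjusted p = 1). Over both gates B16F10 was lower than MC38 by 4.71 times in mean FPKM, a log2 difference of -2.22 ± 0.16 (adjusted p = 4.03e-08).

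Fcgr3, the low-affinity activating receptor gene (chr1:171051174-171064935, minus strand), was the most abundant of the 4 IgG receptor genes in both tumours. Its level was 478, 279.8 and 405 FPKM in B16F10 RFP+ and 506, 228 and 396 FPKM in B16F10 RFP-. MC38 had 899.7, 1114 and 864 FPKM in RFP+ and 765, 962 and 682 FPKM in RFP-. Each MC38 pair was higher in RFP+ and the B16F10 pairs were mixed, and neither gate difference passed: 0.083 ± 0.27 in B16F10 (adjusted p = 0.914) and 0.26 ± 0.27 in MC38 (adjusted p = 1). The tumour difference was the smallest of the 4 IgG receptor genes, -1.24 ± 0.19 (adjusted p = 5.92e-05), or 2.31 times in mean FPKM.

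Fcgr4, a further activating receptor gene (chr1:171018920-171029761, plus strand), showed the widest tumour gap of the IgG receptors. It had 51.8, 35.2 and 39.3 FPKM in B16F10 RFP+ and 55.5, 28.7 and 50.8 FPKM in B16F10 RFP-, against 321, 365 and 396 FPKM in MC38 RFP+ and 382, 421 and 421 FPKM in MC38 RFP-. The lowest MC38 library lay far above the highest B16F10 library. Mean FPKM was 8.83 times lower in B16F10, a log2 difference of -3.15 ± 0.15 (adjusted p = 1.26e-09). The gates overlapped in both tumours, with differences of -0.057 ± 0.22 (adjusted p = 0.922) and -0.18 ± 0.22 (adjusted p = 1).

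Fcgr2b, the inhibitory receptor gene (chr1:170958617-170976547, minus strand), was higher in RFP+ in every pair as deposited and, scaled to the macrophage core genes, in all but the number 12 pair of B16F10. B16F10 had 283, 236 and 317 FPKM in RFP+ and 216, 150.3 and 232 FPKM in RFP- cells, and those 2 groups did not overlap. MC38 had 845, 1021 and 825 FPKM in RFP+ and 695, 899 and 639.6 FPKM in RFP- cells, which overlapped through number 2. The difference was 0.49 ± 0.19 in B16F10 (adjusted p = 0.482, with the block 0.0637) and 0.28 ± 0.19 in MC38 (adjusted p = 1, with the block 0.677). The mean of both tumours was 0.39 ± 0.13 without the block (adjusted p = 0.478), and its SE was 0.078 with the block (adjusted p = 0.0328). That call held when the number 12 pair of B16F10 was left out (adjusted p = 0.00396) and was lost when any other of the 6 pairs was (0.0752 for the number 11 pair, 0.107 for number 3, and 0.218, 0.145 and 0.211 for MC38 numbers 1, 2 and 3). With the block and scaling to the macrophage core genes the mean was 0.098 (adjusted p = 0.406). Between the tumours Fcgr2b was 3.43 times lower in B16F10 in mean FPKM, or -1.80 ± 0.13 on the log2 scale (adjusted p = 6.94e-08).

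Transcripts of Fcgr2b and Fcgr3 share sequence: 166 stretches of 50 bases occur in both, 4.48% of those of Fcgr2b and 10.2% of those of Fcgr3, so some reads may have been assigned to either gene. No other 2 members shared a stretch of that length. Exons of Fcgr2b also overlap the antisense gene Gm38204, those of Mertk the antisense gene Gm14011, and those of Gas6 the opposite-strand gene Tmem255b. The sources used here give no strand setting of the counting, so reads of these partners cannot be told apart.

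Fcer1g, the γ chain gene (chr1:171229572-171234365, minus strand), was the most abundant member, with a mean above that of 99.8% of the genes kept. B16F10 libraries held 1214, 823 and 1209 FPKM in RFP+ and 1866, 832 and 1296 FPKM in RFP- cells. MC38 libraries held 4054, 4148 and 4686 FPKM in RFP+ and 4179.9, 4540.4 and 4585 FPKM in RFP- cells, above all of B16F10. The gate differences were -0.25 ± 0.25 in B16F10 (adjusted p = 0.679) and -0.048 ± 0.25 in MC38 (adjusted p = 1). The tumour difference was -1.91 ± 0.17 (adjusted p = 5e-07), or 3.62 times in mean FPKM.

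The ratio of Fcgr2b, the inhibitory receptor gene, to Fcgr4, an activating one, was described from FPKM within a library, with no test. It was 5.48, 6.69 and 8.06 in B16F10 RFP+ and 3.90, 5.24 and 4.57 in B16F10 RFP-. In MC38 it was 2.63, 2.79 and 2.08 in RFP+ and 1.82, 2.13 and 1.52 in RFP-. The ratio was higher in RFP+ in 6 of 6 pairs, by 1.28 to 1.77 times, and every B16F10 library lay above every MC38 library. Against Fcgr3 the order of the tumours was the reverse: the ratio of Fcgr2b to Fcgr3 was 0.427 to 0.842 in B16F10 and 0.908 to 0.956 in MC38. In RFP+ it was 1.28 to 1.39 times that of RFP- in the B16F10 pairs and 0.981 to 1.03 times in the MC38 pairs. The shared stretches of Fcgr2b and Fcgr3 bear on that ratio. Against Fcgr1 the tumours overlapped, at 7.498 to 9.55 in B16F10 and 4.28 to 8.15 in MC38, and RFP+ was higher in 5 of 6 pairs, the number 11 pair of B16F10 being at 0.853 times.

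The sequences around the starts of the IgG receptor genes, and of Axl and Mertk, are shown because these members moved together between the tumours or apart between the gates. Each is 250 bases before to 50 after the RefSeq start (GRCm38.p6), 5′ to 3′ on the gene's strand. Capitals mark TTCCTC, which holds the core that Ets factors such as PU.1 bind, and TTCNNNGAA, the core form of STAT sites. For Fcgr3 the table gives 2 starts, and the window of the one with the lower coordinate is printed.
Fcgr1, chr3:96293920-96294219, minus strand: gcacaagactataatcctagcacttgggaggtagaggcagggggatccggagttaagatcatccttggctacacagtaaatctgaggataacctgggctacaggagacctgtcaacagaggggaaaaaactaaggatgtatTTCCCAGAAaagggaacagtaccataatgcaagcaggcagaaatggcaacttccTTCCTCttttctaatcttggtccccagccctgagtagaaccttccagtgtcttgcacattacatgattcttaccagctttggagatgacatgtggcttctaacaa
Fcgr3, chr1:171059345-171059644, minus strand: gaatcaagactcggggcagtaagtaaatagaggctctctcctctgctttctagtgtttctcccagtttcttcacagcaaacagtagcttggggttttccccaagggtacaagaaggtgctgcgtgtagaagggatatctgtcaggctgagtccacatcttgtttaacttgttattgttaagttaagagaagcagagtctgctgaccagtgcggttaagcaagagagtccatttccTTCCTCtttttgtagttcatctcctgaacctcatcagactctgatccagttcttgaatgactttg
Fcgr4, chr1:171018676-171018975, plus strand: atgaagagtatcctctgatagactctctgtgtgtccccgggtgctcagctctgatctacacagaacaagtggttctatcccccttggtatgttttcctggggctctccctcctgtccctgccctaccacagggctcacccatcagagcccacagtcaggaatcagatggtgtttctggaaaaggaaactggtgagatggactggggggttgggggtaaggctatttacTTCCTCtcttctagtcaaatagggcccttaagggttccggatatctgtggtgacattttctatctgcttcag
Fcgr2b, chr1:170976022-170976321, minus strand: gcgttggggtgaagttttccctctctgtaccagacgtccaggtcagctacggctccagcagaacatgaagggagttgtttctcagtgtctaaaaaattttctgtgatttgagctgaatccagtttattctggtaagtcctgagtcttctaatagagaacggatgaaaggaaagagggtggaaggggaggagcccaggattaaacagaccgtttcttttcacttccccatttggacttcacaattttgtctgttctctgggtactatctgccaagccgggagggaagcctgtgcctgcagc
Axl, chr7:25788684-25788983, minus strand: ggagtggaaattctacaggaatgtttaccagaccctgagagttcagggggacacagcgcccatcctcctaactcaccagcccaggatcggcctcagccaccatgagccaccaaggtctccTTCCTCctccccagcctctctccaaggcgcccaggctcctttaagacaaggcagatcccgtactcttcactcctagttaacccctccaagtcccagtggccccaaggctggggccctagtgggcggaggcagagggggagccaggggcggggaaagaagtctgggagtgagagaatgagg
Mertk, chr2:128698665-128698964, plus strand: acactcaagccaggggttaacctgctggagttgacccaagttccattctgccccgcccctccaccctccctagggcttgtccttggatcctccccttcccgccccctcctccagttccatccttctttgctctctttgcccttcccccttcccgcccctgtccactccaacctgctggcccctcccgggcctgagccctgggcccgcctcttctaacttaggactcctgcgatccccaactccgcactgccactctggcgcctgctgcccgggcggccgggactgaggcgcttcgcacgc

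All 10 members had a promoter entry, and both strands were searched; the 2 motifs did not overlap in any member. TTCCTC, or GAGGAA on the other strand, occurred in 5 of 10 members (Fcgr1, Fcgr3, Fcgr4, Axl and Mfge8), against 28.3% of 32851 promoters of the same length. Its first base was at -55 in Fcgr1, -15 in the printed window of Fcgr3, -22 in Fcgr4, -130 in Axl and -220 in Mfge8, counted from the start. TTCNNNGAA occurred in Fcgr1 at -109 and in Pros1 at -92, against 8.3% of promoters. A match describes letters in the window and was not tested as a site.

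MerTK and Axl, relatives that share the ligand Gas6, went opposite ways between the gates. Mertk (chr2:128698956-128802894, plus strand) was the lowest member on average, with 13.6, 5.75 and 11.3 FPKM in B16F10 RFP+ and 6.82, 3.33 and 8.55 FPKM in B16F10 RFP- cells. In MC38 it had 25.8, 28.3 and 25.3 FPKM in RFP+ and 18.5, 23.5 and 20.2 FPKM in RFP- cells. RFP+ was higher in each pair, and the gates did not overlap in MC38 but did in B16F10, where number 11 was lowest in both gates. The difference was 0.64 ± 0.30 in B16F10 (adjusted p = 0.497, with the block 0.0919) and 0.34 ± 0.30 in MC38 (adjusted p = 1, with the block 0.827). The mean of both, 0.49 ± 0.21, missed the threshold in both fits (adjusted p = 0.632 and, with the block, 0.0568). The SE was the same in both tumours because the fit shared a spread over all groups. The SD of log2(FPKM + 1) of Mertk was 0.59 in B16F10 RFP+ and RFP-, and 0.083 and 0.17 in MC38 RFP+ and RFP-.

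Axl (chr7:25757273-25788705, minus strand) had the widest range of the members over the 12 libraries, from 12.7 to 236 FPKM. B16F10 RFP+ cells had 23.0, 12.7 and 15.4 FPKM and B16F10 RFP- cells 52.0, 22.6 and 43.9 FPKM. MC38 RFP+ cells had 157, 172 and 216 FPKM and MC38 RFP- cells 202, 181 and 236 FPKM. Each RFP+ library was below its RFP- partner, although the groups overlapped in both tumours, in B16F10 because RFP- number 11 lay at 22.6 and RFP+ number 12 at 23.0. In B16F10 the difference was -1.13 ± 0.28 without the block (adjusted p = 0.212), and with the block its SE was 0.14 and Axl fell in RFP+ cells (adjusted p = 0.00275). In MC38 it was -0.18 ± 0.28 (adjusted p = 1, with the block 1). The mean of both tumours was -0.66 ± 0.19 (adjusted p = 0.311, with the block 0.00667).

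The B16F10 difference of Axl passed in the block fit with any of the 6 pairs left out (adjusted p = 0.00283 to 0.0361), and the mean of both tumours passed with each left out except the MC38 number 1 pair (adjusted p = 0.0691). Without the block it passed once B16F10 RFP- number 11 was left out (-1.48, adjusted p = 0.0119, and -0.83 with 0.0238 for the mean). The mean log2 of the 9 macrophage core genes was 0.40 higher in RFP+ than in RFP- cells of B16F10 and 0.18 higher in MC38. The core genes were not uniform: 8 were higher and 1 lower in RFP+ in B16F10, and 6 were higher and 3 lower in MC38. Scaling to their mean took Axl in B16F10 to -1.54 (adjusted p = 0.00293, where 0.703% of all genes passed). Dendritic cell genes were mostly lower in RFP+ too, by sign 6 of 7 tested in B16F10 and 7 of 7 in MC38. Of these, 0 passed without the block in either tumour. With it 1 passed in B16F10 and 0 in MC38, where 1.36% and 0.44% of all genes did. For the mean of both tumours 7 of 7 dendritic cell genes were lower in RFP+. Of these, 1 passed without the block and 2 with it, beside 0.449% and 1.92% of all genes. Their summed levels were 7.53 to 16.4 FPKM in RFP+ and 14.1 to 49.5 in RFP- of B16F10. In MC38 the sums overlapped, at 14.2 to 37.6 in RFP+ and 25.1 to 66.2 in RFP-. The part of these genes in the Axl and Mertk differences was not tested. The test of the difference between the tumours gave -0.94 ± 0.39 for Axl (adjusted p = 0.895, with the block 0.332), so the larger value in B16F10 was not shown to differ from that in MC38.

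**Figure D2:**
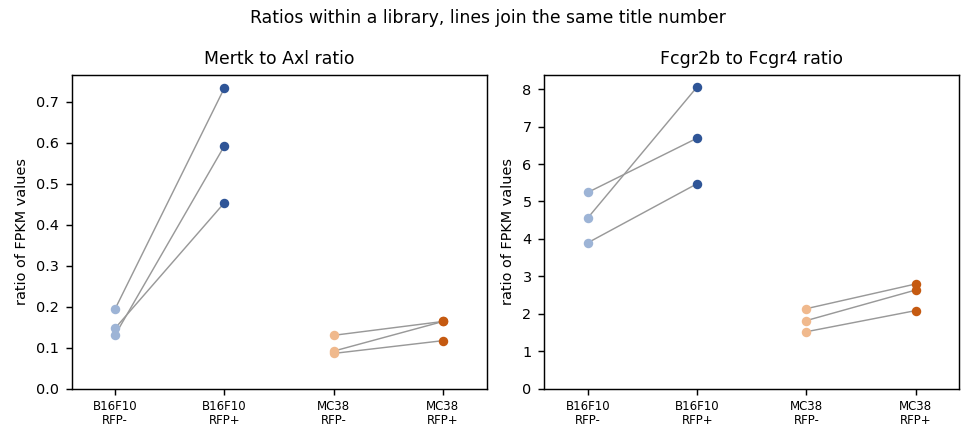
Ratio of Mertk to Axl FPKM (left) and of Fcgr2b to Fcgr4 FPKM (right) within each of 12 libraries, lines joining the same title number. Both ratios were higher in RFP+ in 6 of 6 pairs, which for Mertk to Axl follows from the signs of these genes. The Mertk to Axl ratio of B16F10 RFP+, at 0.454 to 0.734, lay above all other libraries.

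The ratio of Mertk to Axl FPKM within a library was 0.593, 0.454 and 0.734 in B16F10 RFP+ and 0.131, 0.148 and 0.195 in B16F10 RFP-. In MC38 it was 0.164, 0.164 and 0.117 in RFP+ and 0.0914, 0.130 and 0.0857 in RFP-. RFP+ was higher by 3.08 to 4.51 times in the B16F10 pairs and by 1.26 to 1.79 times in the MC38 pairs. The other 3 groups lay between 0.0857 and 0.195, where MC38 RFP+ overlapped both RFP- groups and those 2 did not overlap. A ratio within a library does not depend on its scaling, and no test was made of it. The direction in each pair follows from Mertk being higher and Axl lower in RFP+, and is no separate result.

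Both receptor kinases were lower in B16F10. Axl was 10.7 times lower in RFP+ and 5.23 times lower in RFP- cells in mean FPKM, and the log2 difference over both gates was -2.90 ± 0.19 (adjusted p = 2.62e-08). Mertk was 2.87 times lower over both gates, or -1.51 ± 0.21 (adjusted p = 2.86e-05). No library of either gene overlapped between the tumours.

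Of the ligands, Gas6 (chr8:13465374-13494490, minus strand) varied most within a group. It had 67.6, 9.53 and 59.9 FPKM in B16F10 RFP+ and 88.4, 16.8 and 43.9 FPKM in B16F10 RFP-, with number 11 the low one in both gates. In MC38 it had 6.68, 17.9 and 12.2 FPKM in RFP+ and 8.996, 19.9 and 9.03 FPKM in RFP-, with number 2 the high one in both gates. The tumours overlapped through those libraries, and the melanocytic sum of B16F10 was highest, at 10255 and 10265 FPKM, in the number 11 libraries where Gas6 was lowest. The macrophage core sum of each B16F10 gate was lowest in those number 11 libraries, at 6709 FPKM in RFP+ and 4837 FPKM in RFP-. The part of either in the level of Gas6 was not tested. Gas6 was 3.83 times higher in B16F10 in mean FPKM, a log2 difference of 1.60 ± 0.48 (adjusted p = 0.00943). Within RFP- it passed narrowly (1.70 ± 0.68, adjusted p = 0.0462), and within RFP+ it did not (1.51 ± 0.68, adjusted p = 0.0773).

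Single libraries set those Gas6 calls. Within RFP- the call was lost without B16F10 RFP- number 12 (1.14, adjusted p = 0.197) or number 3 (1.64, 0.0966), without MC38 RFP- number 1 (1.52, 0.123) or number 3 (1.52, 0.12), and through the shared spread, without MC38 RFP+ number 2 (1.70, 0.051) or number 3 (1.70, 0.0573). Without MC38 RFP+ number 1 it passed by less than rounding shows (adjusted p = 0.05). Within RFP+ a call was gained without B16F10 RFP+ number 11 (2.38, adjusted p = 0.00414) or B16F10 RFP- number 11 (1.51, 0.0496). Over both gates the call held with each of the 12 libraries left out, but in the block fit it was lost without the number 12 pair (1.08, adjusted p = 0.082) or number 3 pair (1.38, 0.0514) of B16F10 or the number 1 pair of MC38 (1.34, 0.063). The gate differences of Gas6 were -0.23 ± 0.68 in B16F10 (adjusted p = 0.905) and -0.041 ± 0.68 in MC38 (adjusted p = 1).

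Pros1, the protein S gene (chr16:62854307-62929346, plus strand), had the narrowest range of the members, 2.68 times from lowest to highest. B16F10 had 15.1, 15.0 and 16.2 FPKM in RFP+ and 14.8, 12.6 and 14.4 FPKM in RFP- cells. MC38 had 23.1, 20.2 and 25.2 FPKM in RFP+ and 30.7, 33.8 and 31.9 FPKM in RFP- cells. The gates did not overlap in either tumour, but RFP+ was the higher in B16F10 and the lower in MC38, while on the core scale RFP+ was the lower in 6 of 6 pairs. Opposite signs in all pairs of each tumour were seen for 1 of 10 members, Pros1, against 4.38% of all genes and 1.85% in this direction. The gate difference was 0.14 ± 0.14 in B16F10 (adjusted p = 0.673) and -0.48 ± 0.14 in MC38 (adjusted p = 0.643, with the block 0.338). Their difference, 0.62 ± 0.19, did not pass (adjusted p = 0.895, with the block 0.515). Over both gates Pros1 was 1.87 times lower in B16F10 in mean FPKM, or -0.84 ± 0.097 (adjusted p = 4.48e-06).

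Mfge8, the bridge to αv integrins (chr7:79133768-79149060, minus strand), was higher in B16F10 without overlap. Its level was 47.3, 51.7 and 40.4 FPKM in B16F10 RFP+ and 75.9, 53.2 and 53.3 FPKM in B16F10 RFP-, groups that did not overlap either. MC38 had 19.2, 17.4 and 13.8 FPKM in RFP+ and 19.3, 11.7 and 9.47 FPKM in RFP-. The gate differences of -0.37 ± 0.23 in B16F10 (adjusted p = 0.53, with the block 0.265) and 0.34 ± 0.23 in MC38 (adjusted p = 1) did not pass. The tumour difference was 1.77 ± 0.16 (adjusted p = 5.83e-07), or 3.54 times in mean FPKM. Melanocytic genes and Mfge8 were both higher in B16F10, and their part in the level of Mfge8 was not tested.

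**Figure D3:**
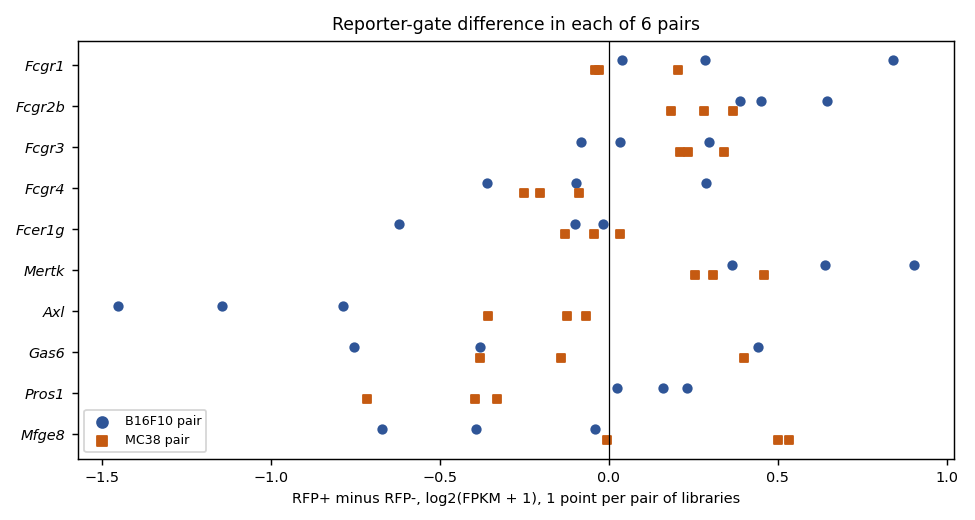
RFP+ minus RFP- on the scale of log2(FPKM + 1) for each member, 1 point per pair of libraries with the same title number (circles B16F10, squares MC38). Mertk and Fcgr2b lie right of 0 and Axl left of 0 in all 6 pairs, and Pros1 is right of 0 in B16F10 and left of 0 in MC38.

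Groups that do not overlap were counted as a further view of the gates. In B16F10 this held for 3 of 10 members, Fcgr2b and Pros1 higher and Mfge8 lower in RFP+, against 11.9% of all genes. In MC38 it held for 2 of 10, Mertk higher and Pros1 lower, against 11.3%. For the difference of the gate effect between the tumours 0 members passed in limma in the fits without and with the block, where 0 and 0.0339% of all genes passed. At an unadjusted p under 0.05, 2 members stood without the block (Axl and Pros1, beside 3.85% of all genes) and 3 with it (Axl, Mfge8 and Pros1, beside 8.55%). The B16F10 gate difference of Fcgr3, Fcgr4 and Pros1 changed sign under at least 1 of quantile normalization, upper-quartile scaling and macrophage core scaling, and none of the 3 passed the threshold in the fits with or without the block on the values as deposited. With the block and core scaling together, Fcgr4 (-0.45, adjusted p = 0.0285), Fcer1g (-0.64, 0.0238), Axl (-1.54, 0.000897) and Mfge8 (-0.76, 0.018) passed as lower in RFP+ cells of B16F10, where 34% of all genes did.

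Within RFP+ cells 9 of 10 members differed between the tumours, all but Gas6, where 55.2% of all genes did, and within RFP- cells 10 of 10 did, where 59.7% did. The 8 genes lower in B16F10 were Fcgr1, Fcgr2b, Fcgr3, Fcgr4, Fcer1g, Mertk, Axl and Pros1 in both gates. No overlap between all 6 B16F10 and all 6 MC38 libraries was seen for 9 of 10 members, against 49.4% of all genes. The median difference of all genes was 0.23, so each of the 8 lower members lay below the median gene and Gas6 and Mfge8 above it. With quantile normalization in place of the values as deposited, the 10 members kept their directions and calls over both gates, while the calls of all genes shifted from 5200 higher and 2998 lower to 4208 higher and 3809 lower.

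Macrophage genes as a whole were lower in the B16F10 libraries: 9 of 9 core genes passed, with log2 differences from -2.87 (Ctss, a lysosomal protease) to -0.49 (Cd68), and the mean of their differences was -2.01. The tumour comparison was therefore repeated with each library scaled to its mean over the 9 core genes, a scale on which the median of all genes is 1.90 and 87.7% of all genes pass as higher and 3.84% as lower in B16F10. On it Fcgr4 remained lower in B16F10 at -1.15 (adjusted p = 2.69e-07), and so did Axl at -0.93 (adjusted p = 1.48e-05), with -1.52 in RFP+ (adjusted p = 4.79e-06) and -0.34 in RFP- (adjusted p = 0.134). Relative to the mean of the core genes, 2 of 10 members were therefore lower. As deposited, Axl (-2.90) lay near the lowest single core gene, Ctss (-2.87).

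On the same scale, Fcgr1 (-0.24, adjusted p = 0.135), Fcer1g (0.10, 0.506), Fcgr2b (0.21, 0.187) and Mertk (0.34, 0.0748) did not pass. The other 4 were higher in B16F10: Fcgr3 at 0.77 (adjusted p = 0.000213), Pros1 at 1.07 (6.89e-06), Gas6 at 3.47 (2.04e-07) and Mfge8 at 3.68 (1.55e-10). All but Gas6 and Mfge8 stayed under the median of all genes on that scale. The IgG receptors thus spread from Fcgr4, which was lower than the mean of the core genes, to Fcgr3, which was higher than that mean. As deposited, single core genes differed by -2.87 to -0.49, a range that holds the -1.24 of Fcgr3 but not the -3.15 of Fcgr4.

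**Figure D4:**
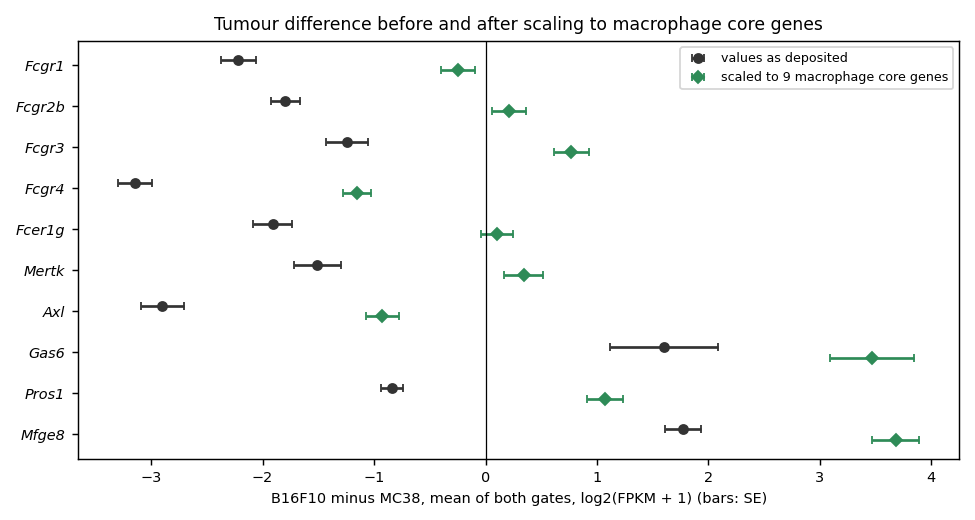
B16F10 minus MC38, averaged over both gates, on the scale of log2(FPKM + 1) with SE bars, for values as deposited (circles) and after scaling each library to 9 macrophage core genes (diamonds). As deposited, 8 members lie left of 0, and after scaling Fcgr2b, Fcgr3, Fcer1g, Mertk and Pros1 lie right of 0 while Fcgr1, Fcgr4 and Axl stay left.

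Other Fc and Fc-like receptor genes followed the members between the tumours. Of 15 such genes, 8 were tested, and 8 of 8 were lower in B16F10, where 25.4% of all genes were, with a median difference of -1.27 against 0.23 for all genes. Of these, Fcrl1 and Fcrl5 had a group mean under 1 FPKM and passed the filter through MC38, and the other 6 were lower too. They included Pirb, an inhibitory receptor of the paired immunoglobulin-like family, at -2.04 ± 0.17 (adjusted p = 1.83e-07), and Lilrb4a, an inhibitory receptor, at -1.33 ± 0.089 (adjusted p = 2.58e-08). Between the gates Fcrlb, an intracellular Fc receptor-like gene, rose in RFP+ cells of B16F10, from 2.84 ± 0.95 to 8.74 ± 1.36 FPKM (SD, n = 3; adjusted p = 0.0499, with the block 0.00187), and in the mean of both tumours (1.06, adjusted p = 0.0171), while Lilrb4a rose in B16F10 with the block only (0.55, adjusted p = 0.0275). In MC38 Fcrls rose in RFP+ cells with the block only (0.87, adjusted p = 0.0163), and Fcrl5 had 0.506 FPKM in RFP+ and 3.69 FPKM in RFP-, the group through which it passed the filter.

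Genes of the signalling path behind the activating receptors were also lower in B16F10. Of 21 tested, 20 (95.2%) were lower and 1 higher, where 25.4% and 44% of all genes were, with a median difference of -1.74. They included the Src-family kinase Lyn, at -2.18 ± 0.14 (adjusted p = 2.17e-08), and the phospholipase Plcg2, at -1.93 ± 0.14. Between the gates 0 of 21 passed in limma without the block, and 2, 0 and 2 stood at an unadjusted p under 0.05 in B16F10, in MC38 and for the mean, where 9.82%, 3.35% and 7.45% of all genes did. With it Rac2, a GTPase of the phagocyte cytoskeleton, fell in RFP+ cells in the mean of both tumours (-0.38, adjusted p = 0.0328). In MC38 Src was at 0.43 (adjusted p = 1, with the block 0.759).

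Of 22 other phosphatidylserine receptors and bridging genes, 18 were tested. In B16F10 Cd36, a scavenger receptor, rose in RFP+ cells from 34.8 ± 13.6 to 102 ± 3.00 FPKM (SD, n = 3; log2 difference 1.60 ± 0.27, adjusted p = 0.0431), and with the block Thbs1 (1.87, adjusted p = 0.000102), Anxa1 (0.72, 0.00645) and Cd300lf (0.63, 0.0138) rose as well. Thbs1 encodes thrombospondin 1 and Anxa1 annexin A1, and Cd300lf a phosphatidylserine receptor. In MC38 0 of 18 passed in limma in either fit (at an unadjusted p under 0.05, 1 without and 5 with the block, beside 3.35% and 6.09% of all genes), with Cd36 at 0.75 (adjusted p = 1, with the block 0.214) and Thbs1 at 0.72 (adjusted p = 1, with the block 0.0524). The mean of both tumours passed for Cd36 without the block (1.17, adjusted p = 0.016). Between the tumours 5 (27.8%) were higher and 11 (61.1%) lower in B16F10, where 44% and 25.4% of all genes were. Tgm2, a transglutaminase, differed by -3.57 and Itgb5, an integrin chain that pairs with αv, by -2.53 on the log2 scale, while Scarb1, a scavenger receptor, was higher (1.02 ± 0.11, adjusted p = 2.92e-06). Of the 5 higher genes, Itgb3, Megf10 and Tyro3 had a group mean under 1 FPKM in MC38 and over 1 FPKM in B16F10, and 2 higher genes are left without them. Itgb3, the other αv partner, had 1.79 and 2.45 FPKM in B16F10 RFP+ and RFP- and 0.032 and 0.0038 FPKM in MC38.

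Of 18 do-not-eat-me and MerTK-linked genes, 14 were tested and 0 passed between the gates in limma without the block. In that fit 3, 1 and 2 stood at an unadjusted p under 0.05 in B16F10, in MC38 and for the mean. The shares of all genes were 9.82%, 3.35% and 7.45%. With the block Klf4, a transcription factor, rose in RFP+ cells in the mean of both tumours (0.72, adjusted p = 0.0364). Nr1h3, the LXRα gene, was at -0.85 in B16F10 and Pparg, the PPARγ gene, at -0.59 in MC38, neither past the threshold (with the block, adjusted p = 0.0813 and 0.402). Between the tumours 3 (21.4%) were higher and 8 (57.1%) lower in B16F10, where 44% and 25.4% of all genes were. Cd47, the do-not-eat-me signal itself, was 78.5 ± 5.55 and 65.8 ± 9.05 FPKM in B16F10 RFP+ and RFP- against 236 ± 7.45 and 246 ± 15.5 in MC38 (SD, n = 3), a difference of -1.74 ± 0.089 (adjusted p = 2.03e-09). Ggcx, the γ-carboxylase that activates Gas6 and protein S, was higher in B16F10 at 1.74 ± 0.14 (adjusted p = 1.18e-07).

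Of the engulfment and digestion genes, 20 of 21 had a row, all were tested, and 0 passed between the gates in limma without the block. In that fit 3, 1 and 4 stood at an unadjusted p under 0.05 in the same order, beside 9.82%, 3.35% and 7.45% of all genes. With the block Slc2a1, a glucose transporter, rose in RFP+ cells in the mean of both tumours (0.42, adjusted p = 0.0357). Abca1, a cholesterol exporter, was at 0.91 in B16F10 and 0.61 in MC38, neither past the threshold (with the block, adjusted p = 0.164 and 0.828). Between the tumours 5 were higher and 8 lower in B16F10, with a median of -0.23, and the 65% that passed is near the 69.4% of all genes. Gulp1, an engulfment adaptor, was at 21.3 and 17.9 FPKM in B16F10 RFP+ and RFP- and at 0.665 and 0.282 FPKM in MC38, and passed the filter through B16F10. Dock2, a Rac activator of leukocytes, differed by -2.11 and Abca1 by -2.20. These tumour differences of the lists are on the values as deposited and stand beside the mean core gene difference of -2.01. The lists were chosen with earlier results of these data known and their counts describe them without a test of the list.

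Among the 10 genes, levels over the 12 libraries followed the tumours. Among the 4 IgG receptor genes and Fcer1g, Pearson's r of log2(FPKM + 1) ran from 0.907 (Fcgr1 and Fcgr3) to 0.984 (Fcgr4 and Fcer1g), and after each tumour's mean was taken out from 0.234 (Fcgr2b and Fcer1g) to 0.854 (Fcgr4 and Fcer1g). For Mertk and Axl r was 0.809 over all libraries and -0.0501 within the tumours, and for Mertk and Fcgr2b 0.96 and 0.885. Axl went with Fcer1g (0.975 and 0.759). These points share tumour, depth and scaling, and r is a description over 12 libraries.

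Of 7751 genes with a mean of at least 5 FPKM, the ones most like Mertk over the 12 libraries were Cd84 (r = 0.99), Lyz1 (0.985) and Lyz2 (0.981), and those most like Axl were Cyp4f18 (0.993), Cd52 (0.992) and Slamf9 (0.992). Fcgr2b was most like Scp2 (0.992), Sat1 (0.988) and Pla2g7 (0.988). Fcgr4 was most like Gngt2 (0.997), Prr5l (0.995) and Glipr1 (0.995), and Fcgr1 like Slfn8 (0.989), Dram2 (0.988) and Sp110 (0.988). For Fcgr3 the list was Psap (0.986), Il4ra (0.979) and Prickle3 (0.977), and for Fcer1g Man2b1 (0.998), Gsdmd (0.996) and Dok3 (0.995). Gas6 was most like Mapk7 (0.958), Gpx3 (0.933) and Gins2 (0.932), Pros1 like Lifr (0.965), Crlf3 (0.948) and Ifngr2 (0.947), and Mfge8 like Tm4sf1 (0.989), Gmpr (0.986) and Phlda3 (0.986). With the tumour means taken out, the 3 genes of each member kept an r of 0.665 or more.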

How the data were processed

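The authors deposited 1 table of gene symbols and FPKM values per library, the unit per the file headers. RNA was taken up in TRI Reagent and made into libraries by SMART-Seq HT and Nextera XT, per the labels' protocols. TopHat2 2.1.1, Bowtie2 2.2.8, SAMtools 0.1.18, Cuffdiff 2.2.1 and the mm10 build are named in the submitters' processing notes, and the annotation and strand setting are not given there. Read counts were not used here, so depth is known only relative to other libraries.

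Tests ran in limma 3.58.1 (R 4.3.3; lmFit, eBayes with a trend) on log2(FPKM + 1), a scale that understates the change of low genes, with 4 group means and 8 residual degrees of freedom. Each SE rests on a spread shared by the 4 groups, so it is not the spread of a single tumour. The tests were two-sided, with Benjamini-Hochberg adjustment over 11808 genes and a threshold of 0.05. The fit was tested on simulated data with known changes. Title numbers paired the libraries: deviations from the group means correlated at 0.228 to 0.443 in the 6 same-numbered pairs and at -0.306 to 0.0178 in the 12 others. The deviations of a group cancel out, so positive same-numbered values push the others down and these ranges are not independent. A fit blocked on the title number (fixed between the gates, leaving 4 residual degrees of freedom, and random between the tumours, with a correlation of 0.291) is given where it changed a call. Scaling to 9 macrophage core genes divided each library by the level given by its mean log2 over those genes. The members and lists were chosen with earlier results of these data known. Beside the members, the text names from each list genes past the threshold in either fit, up to 4 per comparison by smallest p, and where none passed up to 2 with the widest difference at a mean of 5 FPKM or more, and for each member the 3 genes with the highest r. Some genes of the lists are not reported here by name. Other fits changed the pseudocount, filter, scaling, samples and weights or left out each library, and the block fits with core scaling or with a pair left out were chosen after seeing the data. Coordinates come from GENCODE M21 (GRCm38) and promoters from RefSeq. Python 3.11.15, pandas 2.3.3 and matplotlib 3.10.9 made the sequence values and plots.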

Additional observations from a re-analysis of the deposited data

Results flagged for a closer look

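Pros1 stood out because its gate difference had opposite signs in the tumours, with RFP+ higher in 3 of 3 B16F10 pairs and lower in 3 of 3 MC38 pairs. The difference between the tumours was 0.62 on the log2 scale, and its test did not pass in limma (adjusted p = 0.895, with the block 0.515). Opposite signs in all pairs of each tumour occurred in 4.38% of all genes kept, and this direction in 1.85%. Scaled to the macrophage core genes, Pros1 was lower in RFP+ in 6 of 6 pairs.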

How the results depend on the processing

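Of 2000 values of members under other settings, 1848 kept their sign and their side of the threshold, 27 lost and 37 gained a call, 28 that passed as deposited changed sign and 60 changed sign with a call in neither setting. For the gates in B16F10, 0 members passed as reported, 1 with core scaling, with the replicate block, with array weights and in the block fit without the number 11 or 3 pair of B16F10 or any MC38 pair, 2 in the block fit without the number 12 pair of B16F10, 4 with block and core scaling, and 0 to 1 when each library was left out in turn. The mean of both tumours gave 0 as reported, 1 with core scaling, array weights and the block fit without the number 11 or 3 pair of B16F10 or the number 2 or 3 pair of MC38, 2 with the block and with the block without the number 12 pair, 4 with block and core scaling, and 0 to 1 when each library was left out. The gate call gained by leaving out a library was Axl without B16F10 RFP- number 11 (adjusted p = 0.0119 in B16F10 and 0.0238 for the mean). For B16F10 minus MC38, core scaling, with or without the block, gave 6 calls in RFP+ in place of 9, 5 in RFP- in place of 10 and 6 over both gates in place of 10. Of these 3, 3 and 4 kept the direction of the call as deposited, and Fcgr3 and Pros1 passed in the other direction. It turned the sign, as the mean core level itself differed by -2.01, for Fcgr2b (0.21 in RFP+, RFP- and over both), Fcgr3 (0.57, 0.97 and 0.77), Mertk (0.42, 0.27 and 0.34), Pros1 (1.27, 0.88 and 1.07) and Fcer1g (0.31 in RFP- and 0.10 over both), with and without the replicate block. The cause of the other changes was not tested. In the comparisons between the tumours the random block changed no call of a member on the values as deposited. Array weights raised Gas6 in RFP+ to 2.01 (adjusted p = 0.00313), and Gas6 in RFP- lost its call with a pseudocount of 0.1 (adjusted p = 0.0518), no filter (0.131), quantile normalization (0.0763) and upper-quartile scaling (0.0608). With 3 libraries a group and shallower B16F10 libraries, small differences of low genes such as Mertk, Gas6 and Pros1 may not have been detectable.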
